A study of Mus musculus with 4 samples.

Results

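The 38 genes described here encode the machinery that builds ribosomes in the nucleolus. They were chosen by symbol from knowledge of the pathway, with earlier results of these data known. All 38 were found among the 23284 gene symbols of the files. They were measured by RNA-seq in pre-B cells of C57BL/6J mice, the marrow stage at which a developing B lymphocyte has a rearranged heavy chain but no complete antibody yet. The groups, with 1 library each and 4 libraries in all, were as follows: wild-type marrow and marrow transgenic for the adaptor STAP-2 (gene Stap2) at steady state, both with the code 0901 in their titles, and, taken 1 month after transplantation, marrow of wild type and marrow whose label is STAP-2 knockout, both with the code 0826. The study asked how STAP-2 acts on B lymphocyte production when the blood system is under stress. The transgene's promoter, the deleted part of Stap2, the age and number of the animals, and what the transplant hosts retained were not given in the sources used here. Transplantation and whatever the title codes stand for cannot be told apart. With 1 library per group no difference below has a replicate check, no test was possible and no p-value is given.

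Ribosome production starts with RNA polymerase I, which transcribes the ribosomal RNA precursor in the nucleolus. Small nucleolar ribonucleoproteins (snoRNPs) then modify that precursor, box C/D particles by methylation of the ribose and box H/ACA particles by pseudouridylation, while processing factors cut it and fold it into the small and large subunits. The pathway is a classical target of the transcription factor MYC, and it also runs faster in cells that divide. In early B cells MYC is known to act downstream of the interleukin-7 receptor and to be lowered as large cycling pre-B cells become small resting ones, so that in much of this stage MYC and division go together. The question put to these libraries was whether the 38 genes follow Myc or follow proliferation.

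Expression is given as FPKM, a read number divided by transcript length and library size, and differences as differences of log2(FPKM + 1), which understate the change of low genes. Depth, recovered from the steps that 1 read makes among low values, was about 7300000 reads in steady-state wild type, 7240000 in transgenic, 7760000 in transplanted wild type and 8680000 in the labelled knockout. The reads estimated in this way gave each ratio its 95% interval (exact Clopper-Pearson), which covers counting error only. Stap2 was at 0.212, 0.536, 0 and 0.179 FPKM in the same order, or 2, 5, 0 and 2 reads, so its level checks neither genotype label. The B lineage marker Cd79a, a component of the B cell receptor, was high in every library, at 1624 to 1952 FPKM. It is 1 of 13 pre-B markers, and others were not level. Igll1 was at 14.6, 39.9, 36.4 and 49.7 FPKM, Vpreb1 at 7.31, 34.4, 30.2 and 38.6, and Rag1 at 638, 429, 453 and 286. Of the 13, 3 were higher in transgenic than in wild type at steady state. In transplanted over steady-state wild type 5 were higher, and in the labelled knockout over transplanted wild type 7. The part of these differences in the results was not tested. Of 15 neutrophil and granulocyte markers none was at 0, and their summed level was 777, 1859, 1717 and 662 FPKM, so they are given beside each comparison.

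All 38 genes were measured well above the detection limit: each was at 1 FPKM or more in every library, with values from 2.99 to 329 FPKM and a median of 22.4 for the mean over libraries. The fewest reads estimated behind a value were 51. Their levels differed little. In 36 of the 38 genes the highest library was under 1.5 times the lowest, the exceptions being Tsr1 and Rrp12. The share over all genes is not given, so this cannot be read as particular to the 38. The summed level of the 38 genes was 1214 FPKM in steady-state wild type, 1250 in transgenic, 1392 in transplanted wild type and 1371 in the labelled knockout.

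**Figure D1:**
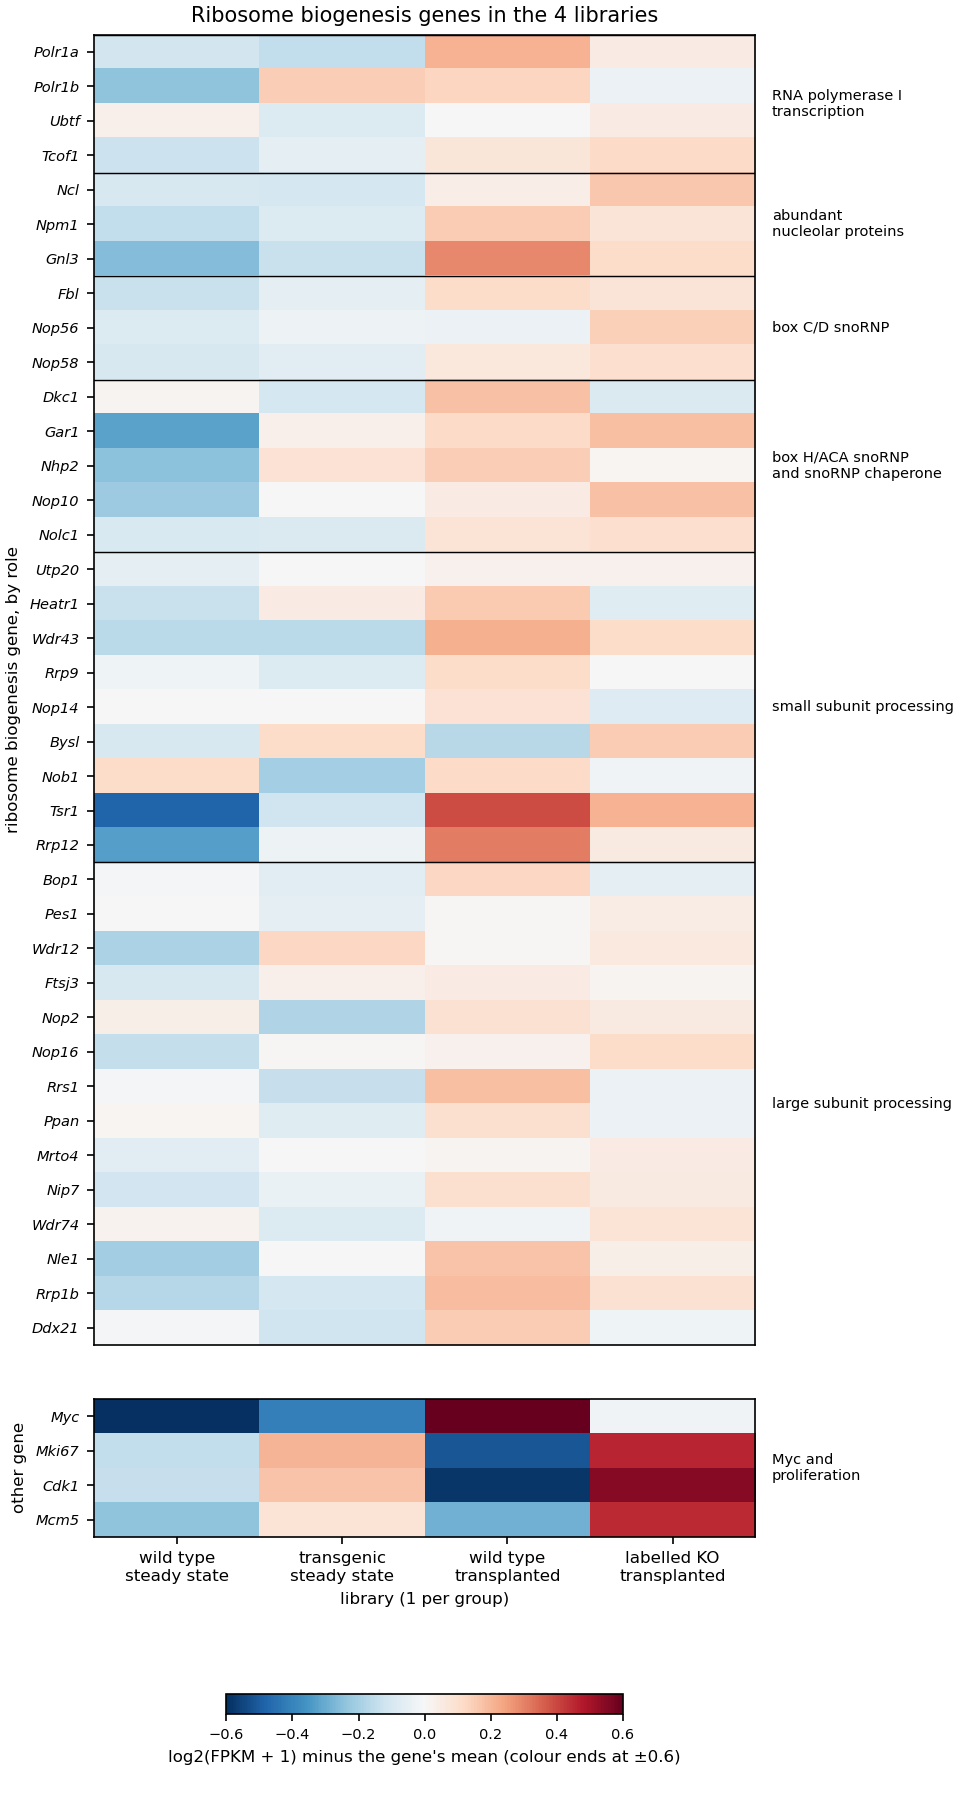
Levels of the 38 ribosome biogenesis genes (upper panel, grouped by role) and of Myc, Mki67, Cdk1 and Mcm5 (lower panel) in the 4 libraries, as log2(FPKM + 1) minus each gene's mean over the libraries; blue is below and red above the mean, and the colour ends at 0.6 in either direction. Most genes of the upper panel are blue in a steady-state column and red in transplanted wild type, the column in which Myc is darkest red and Mki67 and Cdk1 are darkest blue.

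Myc and the proliferation genes gave different orders of the libraries, which is what allows the question to be asked. Myc was at 10.8 FPKM in steady-state wild type, 12.9 in transgenic, 38 in transplanted wild type and 17.2 in the labelled knockout. Transplanted wild type therefore stood apart as the high library, at 3.53 times the steady-state wild type (2.78 to 4.48), and the library labelled knockout was 2.21-fold below it (1.84 to 2.67). Mki67, which encodes the proliferation antigen Ki-67, was at 93.8, 120, 72.7 and 143 FPKM. Cdk1, the kinase of mitotic entry, was at 22.8, 28.5, 16.5 and 37.3 FPKM, and Mcm5, a subunit of the replicative helicase, at 37.8, 47.6, 36.5 and 61.5. All 3 were thus lowest in transplanted wild type, where Myc was highest, and highest in the library labelled knockout. The median of 26 mitosis genes, on the log2(FPKM + 1) scale, was 4.71, 4.99, 4.36 and 5.27, with every one of the 26 lowest in transplanted wild type. The median of 32 DNA replication genes was 4.86, 5.20, 4.96 and 5.31, so for replication transplanted wild type was not the lowest library. Myc and the mitosis median pointed in opposite directions in 3 of the 6 pairs of libraries, and each of these pairs contains transplanted wild type. The question can therefore be answered only by where that 1 library lies.

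By the sign of their differences, the 38 genes lay mostly on the side of Myc. Of the 38, 23 (60.5%) were highest in transplanted wild type, against 26.5% of 11053 genes at 1 FPKM or more in a library. These include near ties, such as Utp20 at 6.95 FPKM there and 6.94 in the library labelled knockout. The interval of labelled knockout over transplanted wild type held 1 for 30 of the 38. It lay wholly below 1, as for Myc, for 5, against 17.3% of all genes, and above 1 for 3, against 11.9%. Only 1, Bysl, was lowest in transplanted wild type as the mitosis genes were (2.63%), against 24.6% of all genes. The other 14 followed neither in all 3 of the pairs that tell Myc and mitosis apart. The full order of Myc over the 4 libraries was matched by 10 genes (26.3%, against 4.76% of all genes). These were Npm1, Gnl3, Fbl, Utp20, Wdr43, Tsr1, Rrp12, Nip7, Nle1 and Rrp1b. The highest step of that order was not resolved for any of these 10. Each had an interval of labelled knockout over transplanted wild type that held 1. The lowest step of that order was not resolved for Myc itself, whose transgenic over wild-type interval was 0.888 to 1.59. Wdr43 matched that step by a near tie, at 20.7 FPKM in both steady-state libraries. The full order of the mitosis genes was matched by Bysl alone (2.63%, against 6.06%). The size of the differences did not match that of Myc: the median level of the 38 genes on the log2(FPKM + 1) scale was 4.46, 4.42, 4.61 and 4.55, while Myc was at 3.56, 3.79, 5.29 and 4.19. These counts depend on the scale. With every library rescaled to the same sum, 14 of the 38 (36.8%, against 17.0% of all genes) were highest in transplanted wild type, and 20 (52.6%, against 30.4%) were highest in the library labelled knockout, whose median was then the highest of the 4. On that scale Bysl was still the 1 gene lowest in transplanted wild type, against 32.4% of all genes. The full order of Myc was then matched by 5 genes (13.2%, against 3.02%), which were Gnl3, Nhp2, Tsr1, Rrp12 and Nle1.

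**Figure D2:**
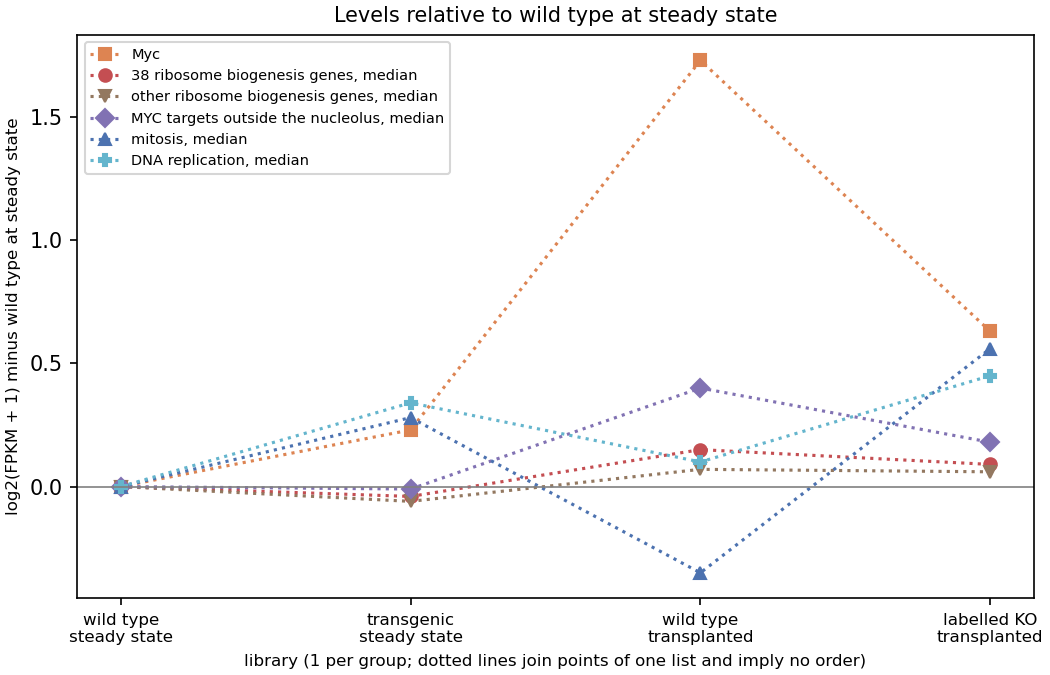
Level of Myc and median level of 5 gene lists in each library, as log2(FPKM + 1) minus the value in wild type at steady state; dotted lines join the points of a list and imply no order of the libraries. Myc is highest in transplanted wild type and the mitosis median is lowest there. The median of the 38 ribosome biogenesis genes is also highest there, at 4.61, against 4.55 in the labelled knockout and 4.46 in wild type at steady state. Unlike Myc it is lowest in the transgenic library, at 4.42, and its differences are far smaller. With every library rescaled to the same sum, the labelled knockout is highest for the 38 genes.

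A second way to read the order, added after the data were seen, is by the title code. In 22 of the 38 genes (57.9%) both transplanted libraries were above both steady-state libraries, against 14.9% of all genes, and in 0 were both below. Among 36 MYC targets outside the nucleolus, such as metabolic and translation genes, 24 had that pattern, against 3 of 32 replication genes. The pattern was found in 0 of 26 mitosis genes. That count adds nothing, because each of the 26 was lowest in transplanted wild type and so could not have it. The 22 genes include all 3 of the role named abundant nucleolar proteins, Ncl, Npm1 and Gnl3. Gnl3 itself was not high in these libraries, with a mean of 17.7 FPKM against a median of 22.4 for the 38. The library labelled knockout, in which Myc was at 17.2 FPKM and mitosis genes were highest, was also above the steady-state wild type in 31 of the 38 genes, at a median difference of 0.20, against 43.8% of all genes and a median of -0.04. Both Myc and the mitosis genes were higher in that library than in the steady-state wild type, so this pair does not separate them.

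Among the genes of RNA polymerase I transcription, the factor that binds the ribosomal DNA repeats was level and the polymerase subunits were not. Ubtf, which encodes that factor (UBF), was at 63.0, 58.1, 61.6 and 63.7 FPKM in steady-state wild type, transgenic, transplanted wild type and the labelled knockout, the order used from here on. Its 4 levels were within 1.10 times of each other. Polr1a, the gene of the largest subunit, was at 10.8, 10.5, 13.7 and 12.2 FPKM, with both transplanted libraries above both others and transplanted wild type at 1.27 times the steady-state wild type (1.12 to 1.44). Polr1b, the gene of the other catalytic subunit, was at 5.11, 7, 6.90 and 6.04 FPKM. For Polr1b the steady-state wild type stood lowest, and the transgenic one was the highest at 1.37 times its level (1.09 to 1.72). Tcof1, whose product treacle recruits the polymerase and modification factors, was at 41.8, 44.0, 48.2 and 49.8 FPKM, higher in both transplanted libraries.

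The 3 genes of the role named abundant nucleolar proteins were all higher after transplantation. Npm1, the gene of the chaperone nucleophosmin and the most highly expressed of the 38, was at 267, 279, 329 and 312 FPKM. Transplanted wild type was 1.23 times the steady-state wild type for Npm1 (1.16 to 1.31), and the library labelled knockout lay just under it at 0.949 times (0.897 to 1.00). Gnl3, which encodes the nucleolar GTPase nucleostemin, was at 14.4, 15.8, 21.5 and 18.9 FPKM, at 1.49 times in transplanted over steady-state wild type (1.23 to 1.80). Ncl, the gene of the RNA-binding protein nucleolin, was at 51.0, 50.6, 56.1 and 61.2 FPKM. Unlike the other two, Ncl was highest in the library labelled knockout, at 1.09 times transplanted wild type (1.01 to 1.19).

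The box C/D proteins kept close levels. Fbl, the ribose methyltransferase fibrillarin, was at 70.4, 74.5, 83.5 and 81.7 FPKM, 1.19 times as high in transplanted as in steady-state wild type (1.06 to 1.34). Nop56, a scaffold protein of these particles, was at 91.5, 94.9, 94.6 and 107 FPKM. The high library for Nop56 was the one labelled knockout, at 1.13 times transplanted wild type (1.05 to 1.22). Nop58, its partner, was at 36.6, 37.4, 41.0 and 42.2 FPKM.

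The box H/ACA genes held the lowest levels in steady-state wild type for all but the enzyme itself. Nop10, a small core protein, was at 52.4, 61.0, 63.3 and 69.2 FPKM. Gar1, another core protein, was at 13.2, 17.1, 18.2 and 19.1 FPKM, and Nhp2, the core RNA-binding protein, at 23.8, 30.2, 31.6 and 28.6. In these 3 genes the transgenic library was close to the transplanted ones, and the interval of the transgenic over wild-type ratio lay just above 1 for Nop10 and Nhp2 and began at 0.982 for Gar1. Dkc1, the pseudouridine synthase dyskerin, followed another course, at 23.0, 21, 25.8 and 21.3 FPKM. It was 1.21-fold lower in the library labelled knockout than in transplanted wild type (1.04 to 1.41). Nolc1, the gene of a chaperone that shuttles snoRNPs into the nucleolus, was at 20, 20.1, 22.7 and 23.0 FPKM.

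Small subunit processing held both the largest difference and the exception. Tsr1 (chr11:74898071-74909342, plus strand, GRCm38), a factor of late small-subunit assembly, was at 4.94, 6.62, 9.86 and 8.55 FPKM. It was at 2 times the steady-state wild type in transplanted wild type (1.56 to 2.57), and also 1.34 times in the transgenic library (1.02 to 1.76). Rrp12 (chr19:41862851-41896173, minus strand), a factor of subunit export, was at 2.99, 3.91, 5.20 and 4.20 FPKM, 1.74 times as high in transplanted as in steady-state wild type (1.34 to 2.28). Both genes had the order of Myc, but their intervals of labelled knockout over transplanted wild type held 1 (0.711 to 1.06 and 0.640 to 1.01). Heatr1, a component of the large assembly on the nascent precursor, was at 13.4, 15.3, 16.6 and 14 FPKM, and Wdr43, from the same assembly, at 20.7, 20.7, 27.1 and 25.2. Heatr1 was the only one of the 38 whose interval lay off 1 in all 3 comparisons with the sign of the Myc difference in each: 1.14 times in the transgenic library (1.03 to 1.27), 1.24 times in transplanted over steady-state wild type (1.12 to 1.37) and 1.18-fold lower in the library labelled knockout (1.07 to 1.31). Nob1, the endonuclease of the final cut of small-subunit RNA, was at 24.0, 19.1, 24.1 and 21.8 FPKM, and was low in the transgenic library, 1.25-fold below wild type (1.04 to 1.52). Utp20, Rrp9 and Nop14, further early processing factors, varied by no more than 1.15 times between their highest and lowest library.

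Bysl (chr17:47599331-47611492, minus strand), the gene of the small-subunit factor bystin, was at 25.7, 29.8, 24.4 and 30.7 FPKM. This is the order of the mitosis genes, with the library labelled knockout at 1.26 times transplanted wild type (1.14 to 1.39). The exons of Bysl overlap those of the cell cycle gene Ccnd3 on the opposite strand, which was at 208, 209, 166 and 225 FPKM and so was also lowest in transplanted wild type and highest in the library labelled knockout. Whether the authors' counting used the strand is not given, and reads of both genes cannot then be told apart, so the value of Bysl is uncertain. Ccnd3 was level between both steady-state libraries (difference 0.01), where Bysl differed by 0.20.

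The 14 large-subunit genes differed less. Ddx21, an RNA helicase and the highest of them, was at 40.4, 37.4, 45.4 and 40.0 FPKM, 1.14-fold lower in the library labelled knockout than in transplanted wild type (1.04 to 1.24). Bop1, Pes1 and Wdr12 encode a complex that processes the large-subunit precursor, and they did not share a pattern. Bop1 was at 34.9, 33.5, 38.3 and 33.6 FPKM, Pes1 at 31.5, 30.3, 31.6 and 32.5, and Wdr12 at 7.06, 9.04, 8.23 and 8.58, so that each had a different high library. Nle1, whose product binds late large-subunit precursors, was at 6.65, 7.85, 8.93 and 8.05 FPKM, and Rrp1b, a nucleolar protein gene, at 3.46, 3.66, 4.71 and 4.35. Both had the order of Myc, but the lower ends of their intervals for transplanted over steady-state wild type were 0.997 and 0.977. Nop2, an RNA cytosine methyltransferase gene, was at 17.5, 14.9, 18.2 and 17.7 FPKM, and Rrs1, which helps to install a ribonucleoprotein of the large subunit, at 13.7, 12.4, 15.7 and 13.4. Both were lowest in the transgenic library. Wdr74 was at 31.9, 29.6, 30.9 and 33.3 FPKM, and Ppan, Ftsj3, Nop16, Mrto4 and Nip7 varied by 1.09 to 1.21 times between their highest and lowest library.

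**Figure D3:**
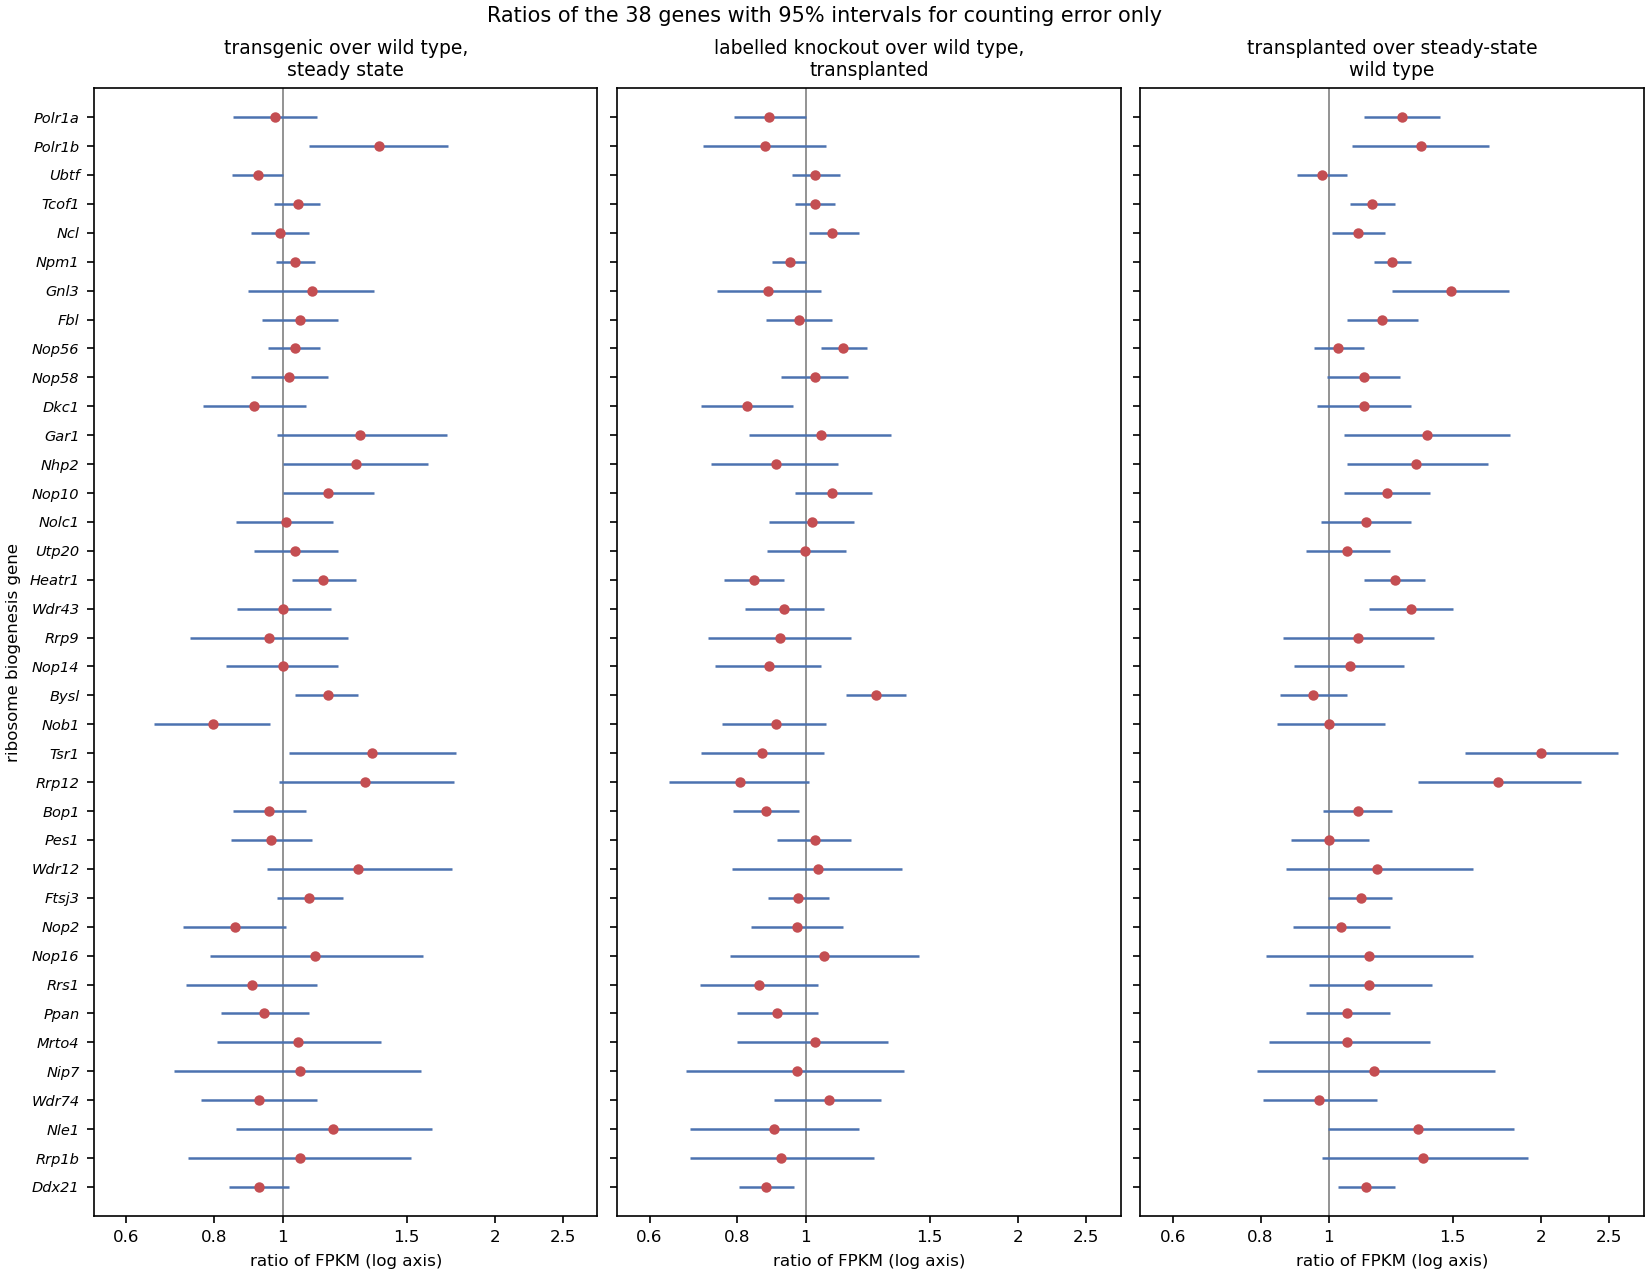
Ratio of FPKM for each of the 38 genes in 3 comparisons of libraries, on a log axis, with 95% intervals for counting error only. In the comparison of transplanted with steady-state wild type 35 points lie right of 1 and 15 intervals lie wholly above it, while in both genotype comparisons most intervals include 1.

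In transplanted against steady-state wild type, the 38 genes were higher as a body. The median difference was 0.17, against -0.02 for all 10835 genes measured, and 35 of the 38 were higher, against 45.9% of all genes. At 1.2-fold or more, 13 were higher and 0 lower, against 15.4% and 12.8% of all genes. The differences ran from -0.07 in Bysl to 0.87 in Tsr1, with Rrp12 at 0.64, Gnl3 at 0.54, Gar1 at 0.43 and Nhp2 at 0.39 next to the top. The 3 that were not higher were Bysl, Wdr74 (-0.04) and Ubtf (-0.03), and Pes1 and Nob1 at 0.01 were level. Rescaling to the same sum, which put the median of all genes at -0.12, left a median of 0.07 and 27 of the 38 higher. Counting intervals lay wholly above 1 for 15 of the 38 and below 1 for 0, against 13.1% and 13.3% of the 9783 genes with a matched length, a share that also depends on the reads behind each gene. Each role had a median above 0 on the deposited scale: 0.26 for polymerase I transcription, 0.30 for the abundant nucleolar proteins, 0.16 for box C/D, 0.27 for box H/ACA, 0.13 for the small and 0.15 for the large subunit. In the same comparison Myc differed by 1.73, the MYC targets outside the nucleolus had a median of 0.29 with 30 of 36 higher, and the mitosis genes one of -0.27 with 0 of 26 higher.

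Other cells and stress genes moved with this comparison. All 15 neutrophil markers and all 9 measured monocyte markers were higher in transplanted wild type, the neutrophil sum being 1717 against 777 FPKM. Mature B cell markers summed to 4934 against 2902 FPKM and plasma cell markers to 106 against 429. Most of the plasma cell difference lay in Igj, at 16.6 against 306 FPKM, while Xbp1 was at 56.8 against 63.1. The 4 measured erythroid markers were all lower, at a median of -1.47. The median difference of 20 immediate early genes, a class that responds quickly to stimulation and to cell handling, was 0.39, with 16 higher. Their part in the result was not tested. In a bulk library fewer cells of a type and less RNA per cell cannot be told apart.

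In transgenic against wild-type cells at steady state, the 38 genes lay close to all other genes, while proliferation genes were higher. The median difference was 0.06, against -0.02 for all 10843 genes, and 24 of the 38 were higher, against 46.7%. At 1.2-fold or more, 6 were higher and 1 lower, against 14.6% and 12.3% of all genes, so that the share higher, 15.8%, is near the background. The highest were Polr1b (0.39), Tsr1 (0.36), Gar1 (0.35), Nhp2 (0.33) and Wdr12 (0.32), and the lowest Nob1 (-0.31), Nop2 (-0.21), Rrs1 and Dkc1 (-0.13 each) and Ubtf (-0.11). Over the 38, counting intervals lay wholly above 1 for 6 genes, Polr1b, Nhp2, Nop10, Heatr1, Bysl and Tsr1, and below 1 for Nob1, against 11.4% and 13.2% of 9787 genes. On the deposited scale box H/ACA genes had the highest median of the roles, 0.22 with 4 of 5 higher, and the 14 large-subunit genes had 0.00 with 7 higher. The mitosis and replication genes were higher at medians of 0.34 and 0.33, with 26 of 26 and 31 of 32 higher, and Myc differed by 0.24, with an interval of its ratio from 0.888 to 1.59. All 15 neutrophil markers were higher in the transgenic library as well (sum 1859 against 777 FPKM), as were all 9 mature B cell markers (sum 4071 against 2902). Of 19 immediate early genes 14 were lower, at a median of -0.47, and the 4 measured erythroid markers were lower, at -1.85. Their part in the result was not tested. Rescaling to the same sum moved the median of all genes to -0.13 and that of the 38 genes with it to -0.05, with 13 higher, and the distance between the medians stayed at 0.08.

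In the library labelled knockout against transplanted wild type, the 38 genes again lay near the background, while Myc and proliferation were far apart from each other. The median difference was -0.06, against -0.03 for all 10790 genes, with 14 of the 38 higher, against 44.0%. At 1.2-fold or more, Bysl was higher (0.32) and Dkc1 lower (-0.27), against 12.7% and 16.7% of all genes. After Bysl the highest were Nop56 (0.18), Nop10 (0.13), Ncl (0.12) and Wdr74 (0.10), and after Dkc1 the lowest were Rrp12 (-0.26), Heatr1 (-0.23), Rrs1 (-0.21) and Tsr1 (-0.19). Counting intervals lay wholly above 1 for Ncl, Nop56 and Bysl and below 1 for Polr1a, Dkc1, Heatr1, Bop1 and Ddx21, against 11.9% and 17.3% of 9739 genes. On the deposited scale the split by role was uneven: 8 of the 9 small-subunit genes were lower, at a median of -0.14, with Bysl as the exception, whereas box C/D genes had a median of 0.04. The split by level was uneven too, the 19 genes of lower mean level having a median of -0.13 with 4 higher and the 19 of higher level 0.04 with 10 higher. Against these small values, Myc differed by -1.10. Mitosis genes differed by a median of 0.96 with 26 of 26 higher, and replication genes by 0.57 with 32 of 32 higher. The MYC targets outside the nucleolus did not go with Myc here, at a median of 0.06 with 20 of 36 higher. Of the neutrophil markers 14 of 15 were lower (sum 662 against 1717 FPKM), and all 20 immediate early genes were lower, at a median of -1.16. All 9 measured monocyte markers and all 9 mature B cell markers were lower too, at medians of -0.95 and -0.65. Their part in the result was not tested. Rescaling to the same sum moved the median of all genes to 0.06 and that of the 38 genes with it to 0.04, with 20 higher, and the distance between the medians stayed at -0.02. The comparisons share transplanted or steady-state wild type with the one above, so their values are not independent.

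**Figure D4:**
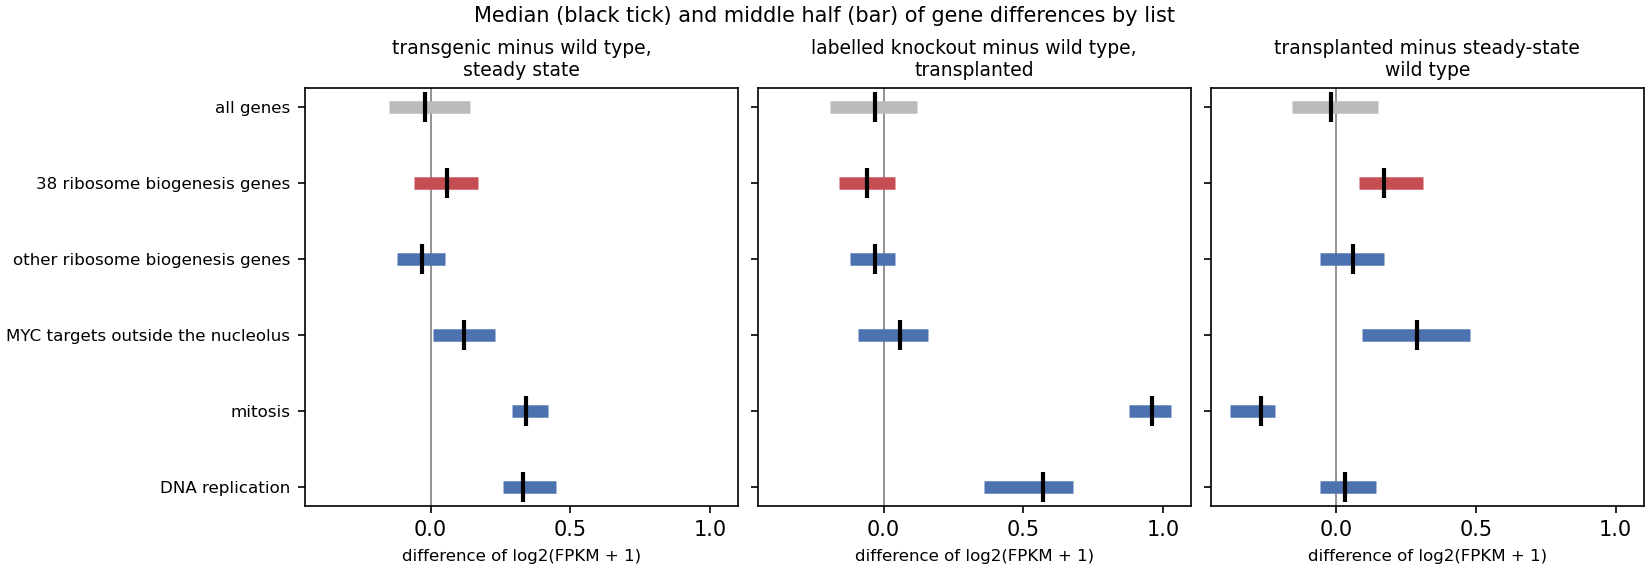
Median (black tick) and interquartile range (bar) of the differences of log2(FPKM + 1) in 3 comparisons, for all genes measured, the 38 ribosome biogenesis genes and 4 other lists. The 38 genes lie near all genes in both genotype comparisons, at 0.06 and -0.06, and above them in transplanted against steady-state wild type, at 0.17, where mitosis genes lie at -0.27.

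A wider list of the pathway had a smaller median. Of 116 further ribosome biogenesis genes 114 were in the files. In transplanted against steady-state wild type 70 of the 114 were higher (61.4%, against 45.9% of all genes), at a median of 0.06. At 1.2-fold or more, 12 were higher (10.5%, against 15.4% of all genes) and 3 lower (2.63%, against 12.8%). The share higher at that threshold was thus below that of all genes. Highest were Mdn1, an ATPase that strips factors such as those of Nle1 and Wdr12 from large-subunit precursors, at 6.81, 8.10, 10.7 and 8.21 FPKM, the nucleoplasmin family gene Npm3 at 30.1, 35.9, 44.5 and 45.0, and Rcl1, a factor of early precursor cleavage, at 11.2, 9.57, 16.1 and 12.1. Lowest were Fcf1 (-0.40), Ddx31 (-0.38) and Gnl3l (-0.27). In this list 42 of 114 genes (36.8%) were highest in transplanted wild type and 13 (11.4%) lowest, and 40 (35.1%) had both transplanted libraries above both others, shares that lie between those of the 38 genes and of all genes. Rescaling to the same sum turned the median of this list to -0.05, where that of all genes was -0.12, and gave 23 genes highest and 23 lowest in transplanted wild type.

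On the deposited scale the genotype comparisons of the wider list stayed near 0, and rescaling to the same sum put its medians at -0.15 and 0.07. In the transgenic library 44 of 114 were higher (38.6%, against 46.7% of all genes), at a median of -0.03. Cirh1a (0.36), the exosome gene Exosc8 (0.35) and Utp3 (0.35) led, with Gnl3l (-0.39), Noc3l (-0.30) and Surf6 (-0.27) at the other end. In the library labelled knockout 47 of 114 were higher than in transplanted wild type (41.2%, against 44.0% of all genes), at a median of -0.03. Highest there were Znrd1 (0.36) and Cd3eap (0.34), both of which encode smaller subunits of RNA polymerase I, and Exosc8 (0.30). Lowest were Rcl1 (-0.38), Noc3l (-0.37) and Mdn1 (-0.35). Rcl1 and Mdn1 were thus among the highest of the list in transplanted wild type against steady state and among the lowest in the library labelled knockout against it, 2 comparisons that share the transplanted wild-type library.

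Some features of the 38 genes bear on how far single values can be read. In GENCODE M21, 13 of the 38 have an exon that overlaps a coding gene on the opposite strand. Tsr1 overlaps Srr, which was at 5.52, 6.62, 8.13 and 6.17 FPKM and so was also highest in transplanted wild type, and Heatr1 overlaps Lgals8, at 34.0, 38.8, 40.8 and 34.3 FPKM, in the same order as Heatr1. For Tsr1 and Heatr1, as for Bysl, shared reads cannot be told apart. Gnl3 overlaps Pbrm1, which was level at 39.8 to 43.1 FPKM. In transplanted against steady-state wild type the 13 overlapping genes had a median of 0.20 with 12 higher, and the other 25 one of 0.17 with 23 higher. The spans of 8 of the 38 (21.1%), among them Nop56, Nop58, Ncl and Gnl3, overlap genes of small nucleolar or Cajal body RNAs on the same strand. The share was 1.27% of 21924 protein-coding genes. That share includes genes not expressed here and counts only small RNA genes lying wholly inside the span. These 8 hosts had a median of 0.16 in that comparison, with 8 higher, and the other 30 genes 0.18, with 27 higher.

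MYC binds CACGTG, the canonical E-box, together with its partner MAX, so the promoters were searched for that motif, which reads the same on both strands. RefSeq promoters of GRCm38.p6, from 250 bases before to 50 after the start, were matched for 32 of the 38 genes, and 6 of them (18.8%) held it: Nle1, Nop2, Pes1, Tsr1, Utp20 and Wdr43. The share was 8.09% of 27025 genes in the table, 12.2% of 7906 genes at 1 FPKM or more and 4.55% of mitosis genes, but 19.2% of replication genes. The motifs TTCCCGC and TTTGGCGC, forms of the E2F site found at cell cycle genes, were held on either strand by 4 of the 32 (12.5%: Ncl, Nhp2, Nolc1 and Nop58), against 11.2% of the genes at 1 FPKM or more and 53.8% of replication genes. Below, 60 bases around the E-box are shown for the 4 genes that hold it at the highest mean level, and the longer run of 280 bases for Tsr1, which was chosen for having the largest difference. Each is from RefSeq on GRCm38.p6, written 5′ to 3′ along the gene's own strand, and capitals mark CACGTG.
Pes1, chr11:3963945-3964004, plus strand: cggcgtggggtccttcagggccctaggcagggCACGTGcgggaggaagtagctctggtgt
Wdr43, chr17:71616185-71616244, plus strand: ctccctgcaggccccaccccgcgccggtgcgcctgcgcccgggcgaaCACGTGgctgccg
Nop2, chr6:125131796-125131855, plus strand: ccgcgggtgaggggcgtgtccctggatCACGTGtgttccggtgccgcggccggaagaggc
Nle1, chr11:82908366-82908425, minus strand: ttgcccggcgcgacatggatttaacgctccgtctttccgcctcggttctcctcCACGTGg
Tsr1, chr11:74897830-74898109, plus strand: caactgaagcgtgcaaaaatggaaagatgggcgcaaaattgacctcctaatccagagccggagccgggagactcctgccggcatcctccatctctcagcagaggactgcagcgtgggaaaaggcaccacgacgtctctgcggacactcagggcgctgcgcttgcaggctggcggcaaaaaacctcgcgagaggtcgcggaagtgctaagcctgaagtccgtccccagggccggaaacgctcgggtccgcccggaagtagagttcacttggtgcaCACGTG

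The E-box lies 60 bases before the annotated start in Nop2. In the other 4 promoters shown it lies just inside the transcript, from base 3 in Pes1, 18 in Wdr43, 24 in Nle1 and 25 in Tsr1. The genes that hold it were not uniform in level. Tsr1 had the largest difference of the 38 between transplanted and steady-state wild type (0.87), while Pes1, with the same hexamer at its start, was level (0.01). The 6 genes with the motif had a median of 0.22 in that comparison, from 0.01 to 0.87 with 6 of 6 higher, and the 26 without it a median of 0.16, from -0.07 to 0.54 with 23 higher. In the library labelled knockout against transplanted wild type the medians were -0.07 with 1 of 6 higher and -0.04 with 12 of 26 higher. A match is a description of the letters in this window, not a measured binding site.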

How the data were processed

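The authors deposited 1 value per gene symbol for each of 4 libraries. The deposited values are read as FPKM from their size, their steps and the naming of Cufflinks 2.2.1. Cufflinks, TopHat2 2.0.13, Bowtie2 2.2.3, SAMtools 0.1.19 and mm10 are named per the submitters' processing notes. A stranded mRNA kit was used, per the labels' protocols. The role of each tool, the annotation and the use of strand in counting were not given in the sources used here.

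Differences were taken as log2(FPKM + 1) for genes that reached 1 FPKM in either library, and counted at 1.2-fold. Depth was estimated from 1-read steps with an effective length of the transcript minus 210 nt; 70.0% to 75.1% of low values lay no further than 0.1 from a whole read (chance gives 20%). Reads for intervals used GENCODE M21 lengths, capped at the coding length plus 500 nt, which tends to widen the intervals. Python 3.11.15, numpy 2.4.6, pandas 2.3.3 and scipy 1.17.1 were used, and the steps were tested on simulated data. Since the reads carry no molecular identifiers, they are not independent molecules.

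The 38 genes, their 6 roles and the other lists were chosen with earlier results of these data known. Named by rule were the highest gene of each role, the 5 highest and 5 lowest differences in each comparison, and 3 of each among the other ribosome biogenesis genes. Further genes, and the count of genes with both transplanted libraries above both others, were chosen after their values were seen. Alternatives were other pseudocounts, filters, thresholds and scalings.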

Additional observations from a re-analysis of the deposited data

How the results depend on the processing

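The higher level of the 38 genes in transplanted than in steady-state wild type kept its direction under each pseudocount, filter and scaling tried. Its smallest form came from rescaling to the same sum, with a median of 0.07 and 27 of 38 higher. That rescaling, which lets the abundant genes set the scale, moved the median of all genes to -0.13, 0.06 and -0.12 in the transgenic, knockout and transplantation comparisons. Relative to all genes the median of the 38 stayed at 0.08, -0.02 and 0.19. It turned the small median of the transgenic comparison from 0.06 to -0.05, with 13 higher in place of 24 and 1 higher and 2 lower at 1.2-fold. It turned that of the knockout comparison from -0.06 to 0.04, with 2 higher and 0 lower at 1.2-fold. The genes highest in transplanted wild type went from 23 to 14. Genes with both transplanted libraries above both others numbered 20 to 25 under the scalings. The single gene at 1.2-fold lower in the knockout comparison became 2 with a pseudocount of 0.1 or none and 0 when scaled by the median ratio, by the upper quartile or without the 100 highest genes. At 1.5-fold, counts were 0 higher and 0 lower in both genotype comparisons and 2 higher in the transplantation comparison, and at 2-fold all of these were 0. With proliferation read from replication genes, 3 genes in place of 1 followed it in each of the 2 library pairs where it opposes Myc. No paired analysis was possible because each group has 1 library.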

Other observations

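Myc's own partners and its targets outside the nucleolus were not uniform over the 4 libraries, given in the order steady-state wild type, transgenic, transplanted wild type and labelled knockout. Max, the dimer partner of MYC, was level at 60.5, 61.6, 63.8 and 59.3 FPKM. Mxd3, a MAX-binding competitor known from cycling cells, was at 17.1, 27.1, 17.4 and 28.8 FPKM, high in the same libraries as the mitosis genes. Mycn was near the detection limit at 1.83, 0.518, 1.67 and 1.45 FPKM. Among the targets, Odc1 (ornithine decarboxylase) was at 28.6, 23.7, 39.1 and 31.7 FPKM and Srm (spermidine synthase), of the same polyamine pathway, at 7.43, 8.72, 12.4 and 11.5, both highest in transplanted wild type. Ccnd2, a D-type cyclin gene, had the largest difference of that list, at 4.95, 9.29, 25.5 and 21.4 FPKM. Ccnd2 was therefore high in both transplanted libraries although Myc was 2.21-fold lower in the library labelled knockout than in transplanted wild type. The genes of this paragraph were picked with their values in view.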
